A study of Mus musculus with 30 samples.

Results

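The 24 serum-deprived libraries of this 30-library RNA-sequencing series form a factorial arrangement in which metformin and leucine were each either absent or present, and they were chosen by their treatment labels alone. All come from the mouse C2C12 line, a wild-type myoblast line whose cells fuse into multinucleate myotubes. Myotubes were differentiated for 4 days and then held for 4 days in low-glucose DMEM without serum, 8 days in all, so serum deprivation (SD) is shared by all 24 libraries. The 4 cells of the design were SD with neither agent, SD with 100 nM metformin (MET), SD with 500 nM leucine (LEU) and SD with both at those doses (MET+LEU), with 6 libraries in each, while the other 6 libraries of the series, kept in 2% horse serum, were not part of the contrast. One immortal line in dishes stands in for muscle here, the medium held its own amino acids besides the added leucine, and nothing in the labels says whether the 6 libraries of a group were separate cultures, so every p-value measures the spread between these libraries.

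Metformin is a biguanide that slows complex I of the respiratory chain and is known to activate AMPK, the kinase that senses low cellular energy. Leucine is an essential branched-chain amino acid that binds Sestrin2 and thereby allows mTORC1, the kinase that drives translation, to become active. Serum supplies the growth factors that, through ERK, switch on immediate early genes such as Egr1 and Fos, whose products are short-lived transcription factors.

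The contrast asked whether both agents together did something other than the sum of what each did alone. For each gene the interaction is the log2 level in MET+LEU minus MET minus LEU plus SD. It is 0 where the fold changes of the single agents multiply, below 0 where the combination gave less than that product and above 0 where it gave more. Levels of single genes are given in CPM, the counts scaled to a common library total after trimmed-mean (TMM) correction, and are not scaled for gene length. A gene is called where its edgeR quasi-likelihood test had a Benjamini-Hochberg adjusted p under 0.05 over all 15671 genes tested.

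The libraries held 12813903 to 18322581 counts. MET+LEU replicate 6 stood apart, with 5.85% of its counts from nuclear ribosomal RNA and 7.64% from mitochondrial ribosomal RNA, against at most 1.96% and 0.76% in the other 23 libraries, and with 80.4% of its counts from protein-coding genes. Many results of the interaction are therefore given with and without that library, the second over 15810 genes tested. Differences of single genes between groups, such as MET+LEU vs. SD, are given with it only. The summed CPM of 10 myotube markers was 28900 to 40400 over the 24 libraries, while 4 adipocyte markers summed to at most 0.268 and 3 endothelial markers to at most 1.1. In bulk RNA, fewer cells of a type and less RNA per cell cannot be told apart.

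Egr1, a zinc-finger transcription factor of the immediate early class, was the single gene called for the interaction (0.00638% of the genes tested). Egr1 stood at 161 CPM in the lowest, 168 in the median and 181 in the highest SD library. The MET libraries ran from 178 to 209 with a median of 199.6, and the LEU libraries from 185 to 211 with a median of 196. The MET+LEU libraries ran from 164 to 177 with a median of 170.1. Every MET+LEU library thus lay below every MET and every LEU library and within the range of SD. Against SD, Egr1 rose with metformin alone by 0.20 log2 (SE 0.041, adjusted p = 0.0392) and with leucine alone by 0.22 log2 (SE 0.041, adjusted p = 0.00724), while MET+LEU vs. SD gave -0.00 log2 (adjusted p = 0.989). The interaction was -0.42 log2 (SE 0.058, 95% interval -0.54 to -0.30, adjusted p = 0.00018). Multiplying the single-agent folds gave an expected MET+LEU mean of 228 CPM, against the measured 170.3 ± 4.94 CPM (standard deviation, n = 6).

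**Figure D1:**
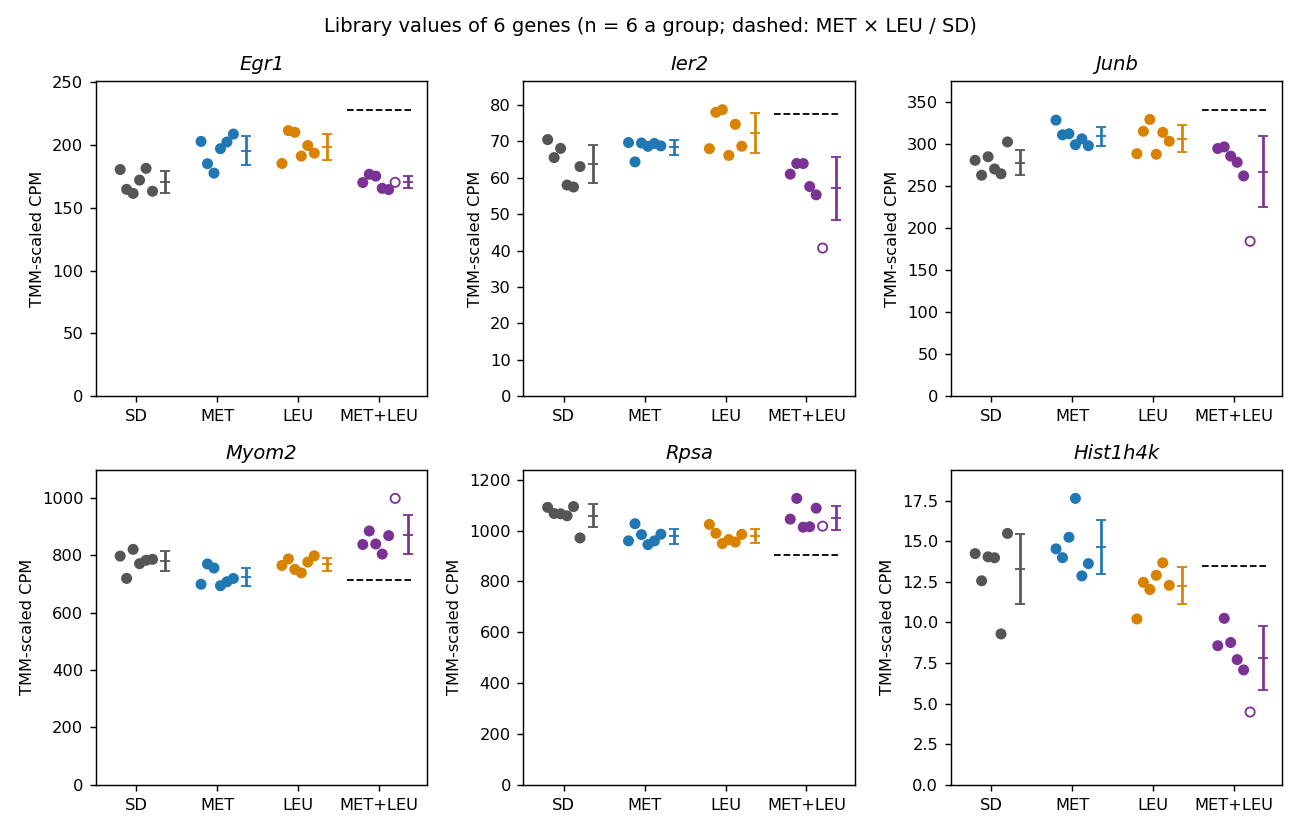
CPM in each library (points; the open circle is MET+LEU replicate 6) by group for Egr1, Ier2, Junb, Myom2, Rpsa and Hist1h4k, with the group mean ± standard deviation (bar) and, as a dashed line, the MET+LEU level that the product of the single-agent folds would give. The MET+LEU libraries of Egr1 lie at 164 to 177 CPM, below the dashed line at 228 CPM, whereas those of Myom2 lie at 804 to 998 CPM, above its line at 715 CPM.

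Without MET+LEU replicate 6, 5 genes were called (0.0316% of those tested), namely Egr1, Ier2, Junb, Myom2 and Rpsa. Leaving out another library instead gave 1 or 2 genes, apart from 5 without MET replicate 2 and 4 without SD replicate 1. Egr1 then gave -0.42 log2 (adjusted p = 2.88e-05). Ier2 and Junb are also immediate early genes, Junb encoding a subunit of the AP-1 transcription factor and Ier2 a nuclear protein induced by growth factors. Ier2 stood at 57.4, 64.3 and 70.4 CPM (lowest, median and highest) in SD, at 64.3, 69.1 and 69.6 in MET, at 66.1, 71.6 and 78.7 in LEU and at 40.7, 59.3 and 63.9 in MET+LEU. The MET+LEU libraries lay below all MET and all LEU libraries, and the lowest of them was replicate 6. The interaction of Ier2 was -0.44 log2 (SE 0.105, adjusted p = 0.317) with that library and -0.36 log2 (SE 0.072, adjusted p = 0.0405) without it. Junb stood at 263, 276 and 303 CPM in SD, at 298, 309 and 329 in MET, at 288, 309 and 329 in LEU and at 184, 282 and 297 in MET+LEU. All MET+LEU libraries were below the lowest MET library, while they overlapped SD and LEU. Its interaction was -0.35 log2 (SE 0.109, adjusted p = 0.433) with replicate 6, which alone stood at 184 CPM, and -0.26 log2 (SE 0.054, adjusted p = 0.0405) without it. Neither gene passed the test with a single agent against SD, metformin and leucine giving 0.10 and 0.18 log2 for Ier2 and 0.16 and 0.14 log2 for Junb.

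The list of 29 immediate early genes, all of them tested, includes Egr1, Ier2 and Junb. Lists and members were chosen with earlier results of these data known. The counts of the immediate early list and of those below are therefore not separate support. The median interaction of the immediate early list was -0.107 log2 (-0.116 without replicate 6), beside 0.00177 over all genes, and 23 members lay below 0. Besides Egr1, which was called, 7 further members had an interaction below 0 at an unadjusted p under 0.05 (8 of 29 in all, against 3.46% of all genes), and 3 had one above 0 (against 4.14%). Without replicate 6 the counts were 8 below and 2 above 0, against 3.33% and 4.1% of genes. The members below 0, named here after their values were seen, were Egr1, Ier2, Junb, Fos (-0.34 log2, adjusted p = 0.548), Jund (-0.33), Klf4 (-0.27), Klf10 (-0.17) and Egr3 (-0.15), all of them transcription factors except Ier2. The 3 above 0 were Ccn2, a secreted matrix protein (0.24), Ier3, a stress-response protein (0.31), and Nr4a3, an orphan nuclear receptor (0.22). Fos, the AP-1 partner of the Jun proteins, stood at 11.2, 14.4 and 15.3 CPM in SD, at 12.6, 14.9 and 17.1 in MET, at 10.2, 12.9 and 14.3 in LEU and at 8.17, 11 and 12 in MET+LEU. Its MET+LEU libraries lay below all MET libraries and overlapped SD and LEU. Unlike Egr1, Fos fell in MET+LEU vs. SD, by 0.39 log2 (adjusted p = 0.00402), with replicate 6 the lowest MET+LEU library. The mean log2 CPM of the list was 5.15 to 5.21 in SD, 5.17 to 5.26 in MET, 5.14 to 5.3 in LEU and 5.01 to 5.21 in MET+LEU, so the groups overlapped at the level of the whole list.

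ERK feedback inhibitors, the phosphatases and Sprouty-family proteins that ERK output induces and that damp it, were described beside them. Of 15 members, 14 had an interaction below 0, with a median of -0.114 log2 (-0.0835 without replicate 6). None was called by edgeR, and 1 lay below 0 at an unadjusted p under 0.05, against 3.46% of all genes. It was Dusp1, a nuclear phosphatase of the MAP kinases, at -0.15 log2 (SE 0.067, adjusted p = 0.599). Dusp1 stood at 54.8, 58 and 60.3 CPM in SD, at 55.7, 57.3 and 62.5 in MET, at 54.5, 56.7 and 58.4 in LEU and at 45.6, 51.7 and 57 in MET+LEU, with overlap between all groups. Spred3, an inhibitor of the Ras to ERK pathway, was the single member above 0, at 0.24 log2 (adjusted p = 0.676).

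Immediate early promoters are known for cyclic AMP response elements (CRE), bound by CREB, and for the CArG box, bound by serum response factor. The 250 bases upstream of the start were read from RefSeq for Junb (GRCm38.p6, chr8:84978749-84978998, minus strand) and Fos (chr12:85473640-85473889, plus strand). Among the immediate early genes with library values given above, these are the 2 whose windows the table held. Jund, Klf4, Ier3 and Nr4a3, named above by their interaction alone, also had windows and are not shown. Capitals mark each TGACG, the core of a CRE, searched on both strands, and both sequences run 5′ to 3′ along the gene.
Junb: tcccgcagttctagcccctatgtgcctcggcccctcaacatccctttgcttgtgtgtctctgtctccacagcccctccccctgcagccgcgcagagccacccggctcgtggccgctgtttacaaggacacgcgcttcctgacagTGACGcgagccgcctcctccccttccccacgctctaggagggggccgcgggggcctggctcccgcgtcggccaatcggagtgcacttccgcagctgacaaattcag
Fos: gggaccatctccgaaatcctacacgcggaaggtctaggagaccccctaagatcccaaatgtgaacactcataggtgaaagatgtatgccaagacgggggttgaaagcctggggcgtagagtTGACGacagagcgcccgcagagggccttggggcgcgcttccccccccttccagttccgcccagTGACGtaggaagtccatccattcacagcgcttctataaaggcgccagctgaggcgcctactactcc
Junb held 1 match, 106 bases before the start, and Fos held 2, at 129 and 66 bases. Neither window held a CArG box, and bases further upstream were not searched, so a box there would have been missed. Of the 29 immediate early genes, 22 had a window in the table, while Ccn2, Egr1, Egr3, Fosl1, Ier2, Klf10 and Myc did not, and 15 of those 22 held TGACG against 19.8% of 27025 genes, while 3 held a CArG box against 1.62% of genes. A match is a string in the sequence and says nothing of binding in these cells.

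Myom2, which encodes myomesin 2, a protein of the sarcomeric M-band, moved the other way. It stood at 719, 784 and 820.3 CPM in SD, at 694, 713 and 769 in MET, at 738, 770.2 and 798 in LEU and at 804, 854 and 998 in MET+LEU. The MET+LEU libraries lay above all MET and all LEU libraries and overlapped SD. The interaction was 0.29 log2 (SE 0.058, adjusted p = 0.0836) with replicate 6, the highest of them, and 0.25 log2 (SE 0.048, adjusted p = 0.0405) without it. Neither single agent gave a called change in Myom2 (-0.11 log2 for metformin and -0.02 for leucine, each against SD), while Myom2 rose in MET+LEU vs. SD by 0.16 log2 (adjusted p = 0.00523).

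Of 52 sarcomere and contraction genes tested, 48 had an interaction above 0 and the median was 0.149 log2 (0.110 without replicate 6). At an unadjusted p under 0.05, 18 of 52 lay above 0 and none below, against 4.14% and 3.46% of all genes. Without replicate 6 these were 20 and 0, against 4.1% and 3.33%, with Myom2 the called member. The 18 included the M-band genes Myom1 (0.27) and Myom3 (0.15), the thin-filament genes Tpm2 (0.24) and Tnnc1 (0.20), the Z-disc gene Actn2 (0.26), slow myosin Myh7 (0.30) and myoglobin, Mb (0.28), named after their values were seen. Myl2, the regulatory light chain of slow muscle, had the largest interaction of these at 0.71 log2 (SE 0.171, adjusted p = 0.21). It stood at 5.83, 7.99 and 9.61 CPM in SD, at 5.88, 6.42 and 8.22 in MET, at 7.61, 8.06 and 8.39 in LEU and at 8.17, 10.8 and 14.6 in MET+LEU. All groups of Myl2 overlapped, and it rose in MET+LEU vs. SD by 0.49 log2 (adjusted p = 0.00345). Myh1, the fast myosin heavy chain IIx, stood at 1618, 1779.5 and 1838 CPM in SD, at 1677, 1788 and 1962 in MET, at 1980.2, 2105 and 2195 in LEU and at 2201, 2241 and 3096 in MET+LEU. Its MET+LEU libraries lay above all others, yet its interaction was 0.16 log2 (95% interval -0.02 to 0.33, adjusted p = 0.691), and 0.07 log2 without replicate 6, the library at 3096 CPM. Mef2c, a transcription factor of muscle genes, had an interaction of 0.19 log2 (adjusted p = 0.421) and rose in MET+LEU vs. SD by 0.24 log2 (adjusted p = 9.65e-05). The mean log2 CPM of the list was 8.24 to 8.38 in SD, 8.19 to 8.32 in MET, 8.32 to 8.49 in LEU and 8.38 to 8.59 in MET+LEU. The MET+LEU level was thus at or above the highest SD and MET libraries and overlapped LEU. Summed CPM of cell type markers also varied between these groups. The summed CPM of the 10 myotube markers, some of them in this list, was 32400 to 34900 in SD, 28900 to 32800 in MET, 36100 to 37900 in LEU and 31500 to 40400 in MET+LEU. That of 7 markers of myoblasts or reserve cells was 874 to 1060, 885 to 932, 890 to 963 and 765 to 916, and that of 6 fibroblast markers was 739 to 900, 753 to 876, 657 to 783 and 622 to 697, in the same order. Ttn, at a mean of 24300 CPM, made up most of the myotube sum, and Col1a1, at a mean of 699 CPM, most of the fibroblast sum. These sums thus largely follow 1 gene each. One fibroblast marker was at 0 throughout, and the part of these markers in the sarcomere values was not tested.

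Clustered histone genes, which are transcribed in S phase, gave the lowest list median. Of 58 tested, 49 had an interaction below 0, with a median of -0.305 log2 (-0.279 without replicate 6). None was called by edgeR. At an unadjusted p under 0.05, 23 lay below 0 (19 without replicate 6) and none above, against 3.46% and 4.14% of all genes. Hist1h4k, an H4 gene, stood at 9.29, 14 and 15.5 CPM in SD, at 12.9, 14.3 and 17.6 in MET, at 10.2, 12.4 and 13.7 in LEU and at 4.48, 8.14 and 10.2 in MET+LEU. Its MET+LEU libraries lay below all MET libraries and overlapped SD and LEU. The interaction was -0.77 log2 (SE 0.172, adjusted p = 0.155), and -0.66 log2 (adjusted p = 0.0582) without replicate 6, which stood lowest. Hist1h2bj, an H2B gene at 0.365 to 2.67 CPM, gave -1.24 log2 (SE 0.326, adjusted p = 0.327). Histone genes have near-identical copies, so the share of reads given to each copy is uncertain. The list mean of log2 CPM was 3.02 to 3.44 in SD, 3.11 to 3.37 in MET, 3.02 to 3.22 in LEU and 2.53 to 2.96 in MET+LEU, the last below every library of the other groups.

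Of 44 other cell cycle and mitosis genes, 1 lay above and 4 below 0 at an unadjusted p under 0.05 (1 and 2 without replicate 6), against 4.14% and 3.46% of all genes. None was called by edgeR, and the median interaction was -0.0384 log2. Their median was -0.058 log2 in MET vs. SD, -0.26 in LEU vs. SD and -0.402 in MET+LEU vs. SD. Plk1, a mitotic kinase, had an interaction of -0.41 log2 (adjusted p = 0.559) and stood at 5.92, 7.47 and 8.69 CPM in SD, 6.52, 7.37 and 8.44 in MET, 5.34, 6.2 and 6.44 in LEU and 2.96, 5.01 and 5.2 in MET+LEU. Rrm1, a ribonucleotide reductase subunit, was the member above 0, at 0.19 log2 (adjusted p = 0.421). The summed CPM of 5 cycling-cell markers was 145 to 209 in SD, 136 to 196 in MET, 119 to 151 in LEU and 109 to 141 in MET+LEU, and its part in the histone values was not tested.

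**Figure D2:**
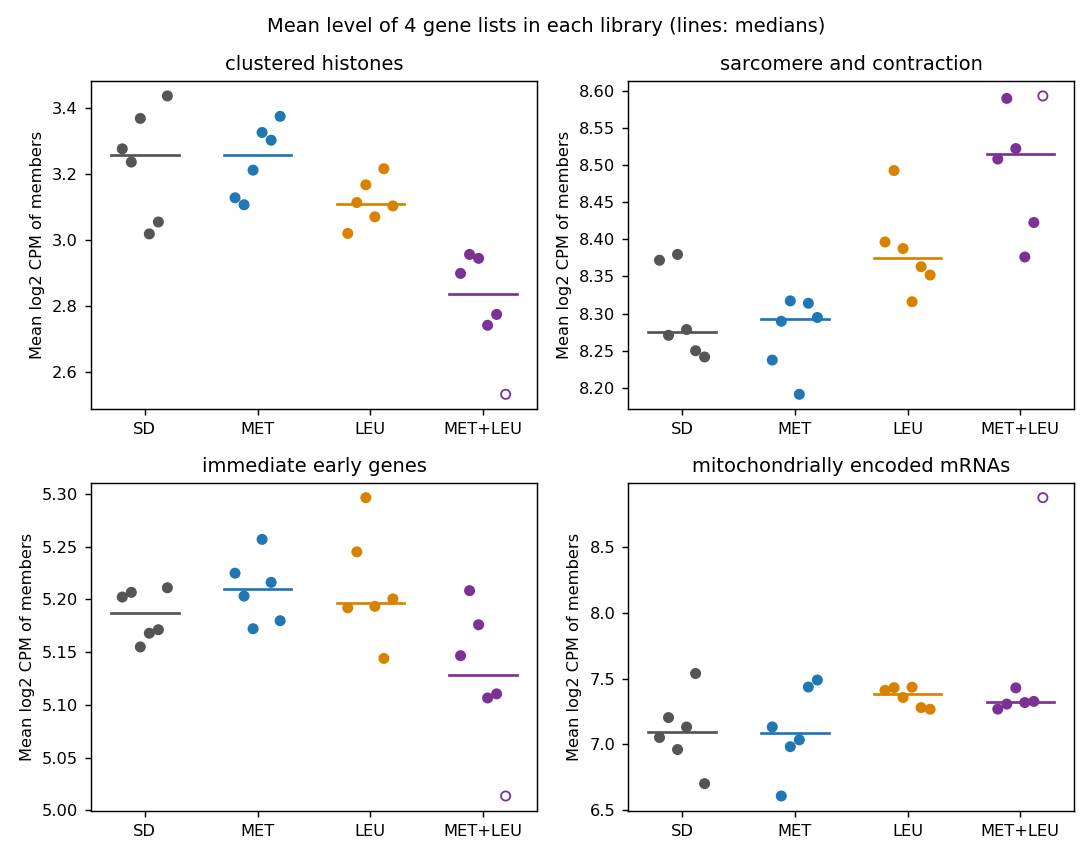
Mean log2 CPM over the tested members of 4 gene lists in each library (points; the open circle is MET+LEU replicate 6) by group, with the group median as a line. The MET+LEU libraries lie at 2.53 to 2.96 for clustered histones, below the other groups, and at 8.38 to 8.59 for sarcomere genes.

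Rpsa, a protein of the small ribosomal subunit, stood at 971, 1067 and 1094 CPM in SD, at 945, 972 and 1027 in MET, at 949, 975 and 1024 in LEU and at 1013, 1031 and 1127 in MET+LEU, with overlap between all groups. Its interaction was 0.22 log2 (SE 0.050, adjusted p = 0.155) with replicate 6 and 0.23 log2 (SE 0.047, adjusted p = 0.0405) without it, from -0.12 (MET), -0.11 (LEU) and -0.01 (MET+LEU) log2 vs. SD. Rps6, the small-subunit protein that S6 kinase phosphorylates, gave 0.23 log2 (adjusted p = 0.155), with MET+LEU at 331 to 359.9 CPM above MET at 292 to 322 and LEU at 297 to 319.8. Both genes have many processed pseudogenes, and the division of reads between copies is uncertain.

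The list of cytosolic ribosomal proteins lay closer to 0. Of 83 members, 53 lay below 0, and the median interaction was -0.0686 log2 (-0.0486 without replicate 6). At an unadjusted p under 0.05 there were 5 above and 5 below 0, against 4.14% and 3.46% of all genes. The list's median was 0.0972 log2 in MET vs. SD, 0.0899 in LEU vs. SD and 0.122 in MET+LEU vs. SD. In MET+LEU vs. SD 32 members rose and 1 fell, where 17.3% of all genes were called. No member was called in MET vs. SD (0.0957% of genes by edgeR) and 4 rose in LEU vs. SD (0.408%). The calls over all genes depended on MET+LEU replicate 6. They numbered 15 in MET vs. SD, 64 in LEU vs. SD and 2712 in MET+LEU vs. SD with it, and 106, 215 and 2024 without it. Rps12, a further small-subunit protein, stood at 232, 261 and 307 CPM in SD, at 295, 321 and 326 in MET, at 302, 312 and 349 in LEU and at 353, 377 and 469 in MET+LEU. Its MET+LEU libraries lay above all others, with an interaction of 0.04 log2 (95% interval -0.14 to 0.22), and -0.02 log2 without replicate 6. Rpl36a of the large subunit gave -0.12 log2 (95% interval -0.43 to 0.18) from 0.35, 0.40 and 0.63 log2 in MET, LEU and MET+LEU vs. SD.

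Glycolysis and pyruvate entry genes leaned above 0. Of 34 tested, 28 were above 0, and the median was 0.081 log2 (0.103 without replicate 6). At an unadjusted p under 0.05, 7 lay above 0 and none below (10 and 0 without replicate 6), against 4.14% and 3.46% of all genes. None was called by edgeR. Pdha1, the E1 subunit of pyruvate dehydrogenase, stood at 274, 279.9 and 295 CPM in SD, at 262, 269.9 and 286 in MET, at 268, 272 and 279.9 in LEU and at 294, 299 and 317 in MET+LEU. Its MET+LEU libraries lay above all MET and LEU libraries, with an interaction of 0.20 log2 (SE 0.046, adjusted p = 0.155). Pdk4, the kinase that inactivates that enzyme, gave 0.31 log2 (SE 0.091, adjusted p = 0.421), with medians of 27.2, 25.6, 26.5 and 30.8 CPM in SD, MET, LEU and MET+LEU. The enzyme and its inhibitor thus lay on the same side of 0.

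Cholesterol and fatty acid synthesis genes were mixed, with a median of 0.0465 log2. Of 33, 6 lay above and 2 below 0 at an unadjusted p under 0.05, against 4.14% and 3.46% of all genes. Scd1, the desaturase that makes oleate, gave 0.22 log2 (SE 0.051, adjusted p = 0.18; 0.23 and 0.0629 without replicate 6), with medians of 557, 506, 531 and 576 CPM in SD, MET, LEU and MET+LEU. Cyp51, a step of sterol synthesis, gave 0.19 log2 (adjusted p = 0.423).

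**Figure D3:**
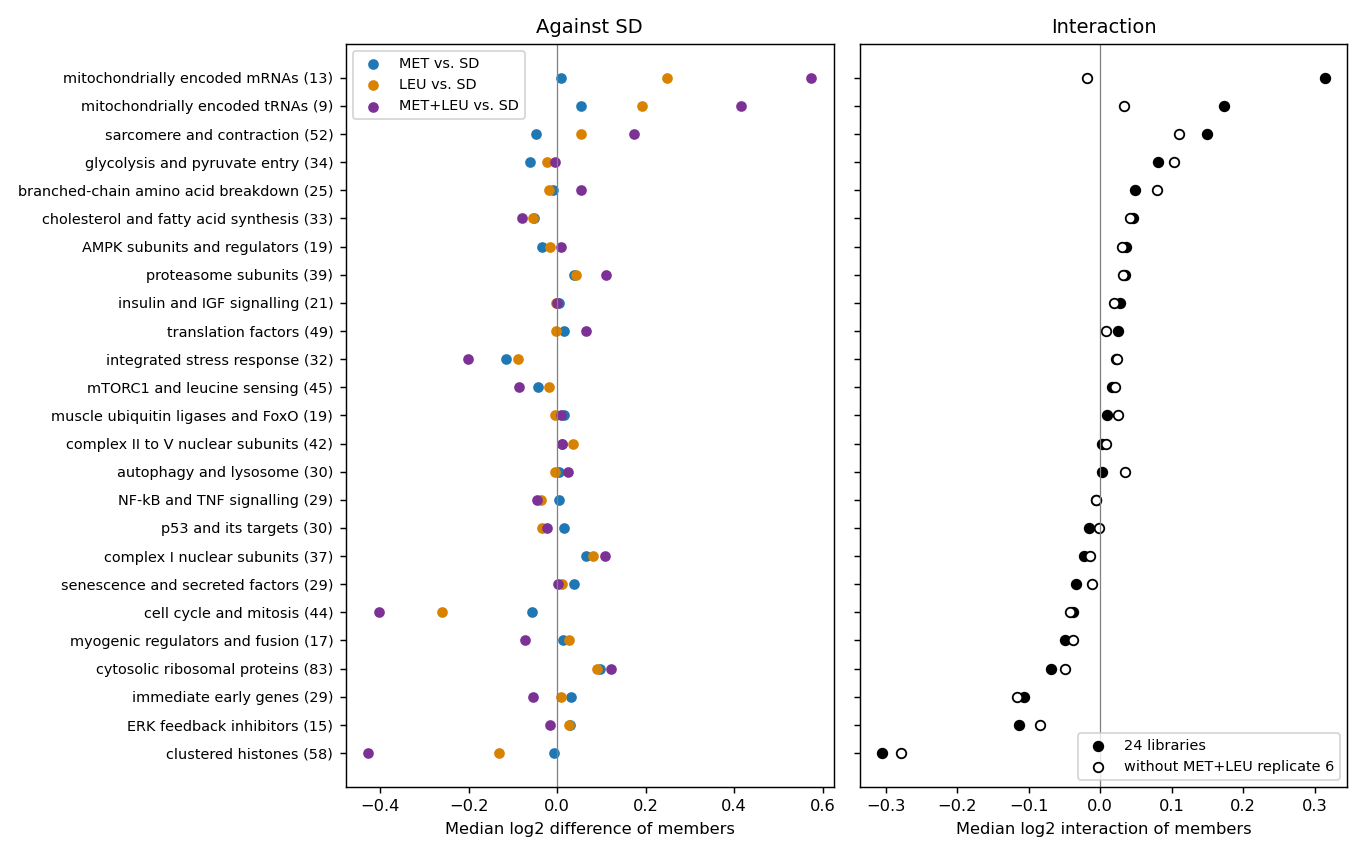
Median log2 value of each gene list, with MET, LEU and MET+LEU vs. SD in the left panel and the interaction with and without MET+LEU replicate 6 in the right panel. Clustered histones have the lowest interaction median (-0.305 log2), and the mitochondrially encoded mRNAs move from 0.315 to -0.0189 log2 when replicate 6 is left out.

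In the lists of mTORC1 and leucine sensing, AMPK and branched-chain amino acid breakdown no member was called by edgeR. Their counts at an unadjusted p under 0.05 stand beside 4.14% of all genes above 0 and 3.46% below. Among 45 genes of mTORC1 and leucine sensing, 3 lay above 0 at an unadjusted p under 0.05 (1 without replicate 6) and none below. The median was 0.0172 log2, and no member went beyond 0.21 log2 in either direction. Mtor, the kinase itself, gave 0.03 log2 (95% interval -0.08 to 0.14). Among 19 AMPK subunits and regulators, 3 lay above 0 (2 without replicate 6) and none below, with a median of 0.0362 log2. Of these, Prkag3, a regulatory subunit of skeletal muscle, gave 0.15 log2 (adjusted p = 0.606) and Prkab2, a scaffold subunit, 0.16 (adjusted p = 0.644), while the catalytic subunits Prkaa1 and Prkaa2 gave 0.09 (95% interval -0.02 to 0.19) and 0.01 log2 (95% interval -0.15 to 0.17). Among 25 genes of branched-chain amino acid breakdown, 3 lay above 0 and none below (median 0.049 log2). Slc7a5, the large neutral amino acid transporter that carries leucine, stood at 129.9, 136 and 153 CPM in SD, at 116, 119.8 and 132 in MET, at 114, 124 and 128 in LEU and at 98.9, 113 and 115 in MET+LEU, the lowest being replicate 6. The single agents gave -0.17 log2 (metformin, adjusted p = 0.105) and -0.16 log2 (leucine, adjusted p = 0.0957) against SD, neither past the threshold, and it fell in MET+LEU vs. SD by 0.31 log2 (adjusted p = 4.83e-06), with an interaction of 0.02 log2 (95% interval -0.10 to 0.14).

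Among genes of stress and senescence none was called by edgeR, and their counts were close to the shares over all genes just given. Of 32 genes of the integrated stress response, 2 lay above and 1 below 0 at an unadjusted p under 0.05, of 30 p53 genes 2 and 1, and of 29 senescence and secreted factors 0 and 1. Cth, which makes cysteine from cystathionine, was the highest of the stress response genes at 0.76 log2 (SE 0.329, adjusted p = 0.593). The cell cycle inhibitor Cdkn1a gave -0.05 log2 (95% interval -0.17 to 0.07), its activator Trp53 -0.11 (-0.26 to 0.04), the CDK4 inhibitor Cdkn2c -0.25 (-0.49 to 0.00) and the actin-associated Pdlim4 -0.10 (-0.23 to 0.02). All 4 fell in MET+LEU vs. SD, by 0.18, 0.18, 0.33 and 0.23 log2 (adjusted p = 0.00334, 0.0113, 0.00759 and 0.000324). MET+LEU replicate 6 was the lowest MET+LEU library for each, at 1917, 58.6, 10.8 and 112 CPM. In this contrast 2712 of all genes (17.3%) were called, and 2024 without that library. Chac1, a glutathione-degrading enzyme induced by stress, gave 0.14 log2 (95% interval -0.14 to 0.42), and the leucine sensor Sesn2 gave -0.06 (-0.28 to 0.16). Chac1 and Sesn2 fell in MET+LEU vs. SD by 0.47 and 0.295 log2 (adjusted p = 0.000901 and 0.00703), again with MET+LEU replicate 6 the lowest of its group.

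Mitochondrial transcripts depended on replicate 6. The 13 mitochondrially encoded mRNAs had a median interaction of 0.315 log2 with it and -0.0189 without it, and their list mean was 7.27 to 8.88 log2 CPM in MET+LEU with it and at most 7.43 without it, against 6.7 to 7.54 in SD, 6.61 to 7.49 in MET and 7.27 to 7.44 in LEU. The mitochondrial ribosomal RNA mt-Rnr1 gave 0.59 log2 (SE 0.780, adjusted p = 0.905) and turned to -0.91 (adjusted p = 0.486) without it, while mt-Rnr2 gave 2.25 (SE 0.832, adjusted p = 0.533) and then 0.50 (adjusted p = 0.62). MET+LEU replicate 6 held 52118 CPM of mt-Rnr1 and 41983 CPM of mt-Rnr2, where the other MET+LEU libraries held 3529 to 4941 and 1997 to 3514. The proline tRNA mt-Tp was higher in all MET+LEU libraries (4.24, 5.12 and 6.35 CPM) than in SD (2.07, 3.36 and 3.9), MET (2.01, 2.75 and 3.17) or LEU (2.54, 2.89 and 3.41). Its interaction was 1.00 log2 (SE 0.214, adjusted p = 0.139), and 1.01 (adjusted p = 0.0629) without replicate 6. It overlaps transcripts of the other strand, and whether counting used strand is not given in the sources used here.

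**Figure D4:**
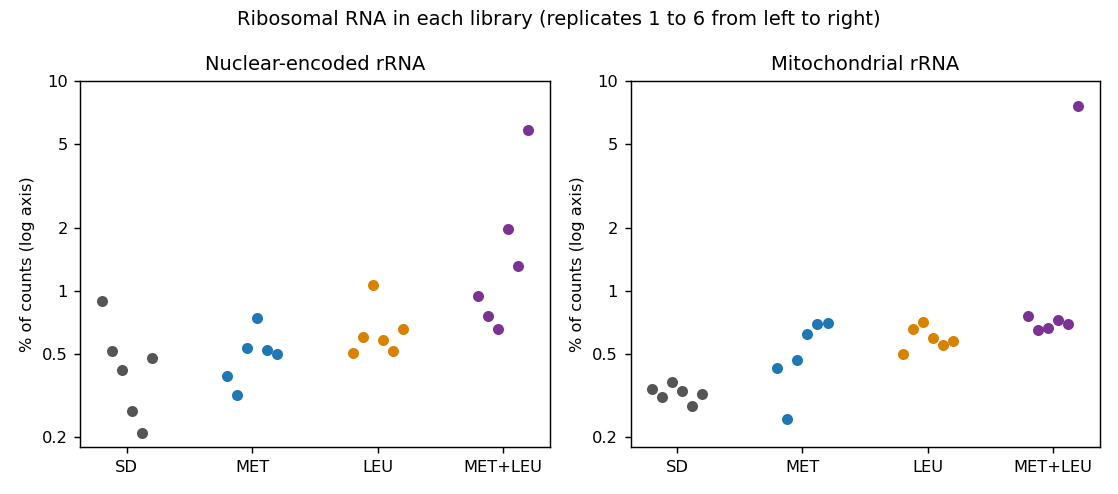
Percent of counts from nuclear and from mitochondrial ribosomal RNA in each library (points, log axis) by group. MET+LEU replicate 6 lies at 5.85% and 7.64%, while the other 23 libraries reach 1.96% and 0.76%.

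The labels number the libraries of each group 1 to 6, without saying what a number stands for, and values within replicates 1 to 3 and 4 to 6 were compared after the data were seen, because the mean of the glycolysis list was higher in the first set than in the second (SD 6.69 to 6.72 against 6.55 to 6.67, LEU 6.67 to 6.76 against 6.56 to 6.62). Within replicates 1 to 3, 7 genes were called (0.0445%), and within 4 to 6 there were 77 (0.49%). Without MET+LEU replicate 6, which left MET+LEU replicates 4 and 5, the set of 4 to 6 gave 403 (2.52%). Egr1 was called in each, at -0.37 (adjusted p = 0.0401), -0.46 (0.00765) and -0.48 log2 (1.33e-06). Egr1 and the other 4 genes were chosen on these same libraries, so their values in the 3 fits are not separate support. Ier2 stood at -0.24, -0.66 and -0.52, Junb at -0.28, -0.43 and -0.27, Myom2 at 0.23, 0.34 and 0.25 and Rpsa at 0.23, 0.21 and 0.23 log2.

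The medians of the lists were compared in the same way. The histone median was -0.03 log2 within replicates 1 to 3, -0.593 within 4 to 6 and -0.523 within 4 to 6 without MET+LEU replicate 6. The ribosomal protein median changed sign, from 0.095 to -0.233 and -0.236, as did that of complex I subunits, from 0.108 to -0.168 and -0.225, and that of complex II to V subunits, from 0.151 to -0.17 and -0.181. The sarcomere median was 0.157, 0.158 and 0.041, and the immediate early median -0.09, -0.171 and -0.142. A test of the difference between the interactions of the 2 sets, in a fit of all 24 libraries, called 67 genes (0.428%), 30 higher and 37 lower in replicates 4 to 6. It called 6 ribosomal proteins, 4 respiratory chain subunits, 2 histones, 1 sarcomere gene, 1 translation factor and 1 cholesterol and fatty acid synthesis gene, all lower in 4 to 6. It also called 1 immediate early gene (adjusted p = 0.0481) and 1 gene of mTORC1 and leucine sensing (adjusted p = 0.0448), both higher in 4 to 6. None of the 5 genes above was called (Ier2 -0.41 log2, adjusted p = 0.187, and the rest 0.621 to 0.982). Without MET+LEU replicate 6 it called 123 genes (0.778%), among them 8 ribosomal proteins, 10 respiratory chain subunits, 4 histones, 3 translation factors and 2 sarcomere genes, all lower. The AMPK, glycolysis, proteasome, senescence, cell cycle and cholesterol lists each held 1 lower member. The immediate early and mTORC1 lists each held 1 higher member (adjusted p = 0.0445 and 0.038). The ribosomal protein and respiratory chain medians, near 0 over 24 libraries, thus lay on either side of 0 in these 2 sets. The cut was made after the data were seen, so the genes called by this test are not separate support for it. Whether the 2 sets differ in handling or time was not tested.

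Averaged over the absence and presence of the other agent, metformin changed 841 genes, 531 higher (3.39%) and 310 lower (1.98%), and leucine 1165, 648 higher (4.14%) and 517 lower (3.3%). These averages share all libraries with the interaction but are estimated independently of it in a balanced design. The metformin count fell to 433 without SD replicate 2, 469 without LEU replicate 3, 522 without MET replicate 3 and 545 without SD replicate 1, and to 201 with the ribosomal RNA share as a covariate, which took the leucine count to 244. Without MET+LEU replicate 6 the metformin count was 787 and the leucine count 1071. The leucine average gave 28 of 52 sarcomere genes higher and none lower, 29 of 44 cell cycle genes lower and none higher, and 21 of 58 histones lower and 2 higher. Metformin gave 6 sarcomere genes higher and 5 lower, 4 cell cycle genes lower and 9 histones lower. In MET+LEU vs. LEU 14 histones fell (3.94% of all genes called), and in MET+LEU vs. MET 25 histones fell and 31 sarcomere genes rose (6.66% called). These contrasts called 618 and 1044 genes in all, and 348 and 645 without MET+LEU replicate 6.

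Among called genes at a mean log2 CPM of 1 or more, the largest average effects of metformin were those on the processed pseudogene Gm8292 (0.74 log2, interaction 0.50), the chemokine gene Ccl11 (0.56, interaction 0.03), the actin-binding Avil (-0.51, interaction -0.02), the antisense gene Gm15265 (-0.51, interaction 0.15) and the kinase-anchoring Akap12 (0.51, interaction -0.31). For leucine they were those on mt-Rnr2 (1.63), mt-Rnr1 (1.39), the genes Gm24187 (1.47) and Gm24270 (1.35), annotated as miRNAs, and Lars2 (1.44), the mitochondrial leucyl-tRNA synthetase gene. With the ribosomal RNA share as a covariate, the leucine average was 0.641 log2 for Lars2 (adjusted p = 0.061), 0.762 for Gm24270 (adjusted p = 0.131) and 1.03 for Gm24187 (adjusted p = 0.0495). In each group Lars2 was highest in the library with most nuclear ribosomal RNA and lowest in that with least. In SD these libraries held 300 and 79.8 CPM, at 0.89% and 0.209% of counts. In MET+LEU they held 1384 and 335 CPM, at 5.85% and 0.659%. Why Lars2 followed this share was not tested. With 1 library left out, the leucine average fell as low as 0.754 log2 for mt-Rnr2 and 0.637 for mt-Rnr1. Among the alternatives that gave an adjusted p, the metformin average missed the threshold in 17 of 38 for Akap12, 9 of 38 for Avil and 3 of 38 for Gm15265, and the leucine average in 17 of 37 for mt-Rnr1 and 3 of 37 for mt-Rnr2, each of these RNAs with 1 further value below 0. The interactions of Gm24187, Lars2 and Gm24270 were 1.14, 1.30 and 0.89 log2, with adjusted p of 0.606, 0.562 and 0.728. Without replicate 6 these 3 gave 1.08, 0.96 and 0.71 log2.

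A gene that missed the threshold was not thereby additive, and the intervals say how far it could depart. The 95% interval of the interaction reached a median of 0.234 log2 to either side of the estimate. It lay within 0.25 log2 of 0 for 33.4% of genes, within 0.5 for 65.4% and within 1 for 86.3%. Among 5835 genes whose mean log2 CPM was 5 or more, these shares were 74.1%, 98.2% and 99.8%. Among 2943 genes under a mean log2 CPM of 1 they were 0%, 0.034% and 33.7%, so a departure of up to 1 log2 remained possible for most of them. At an unadjusted p under 0.05 stood 1190 genes (7.59%), 648 above and 542 below 0.

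**Figure D5:**
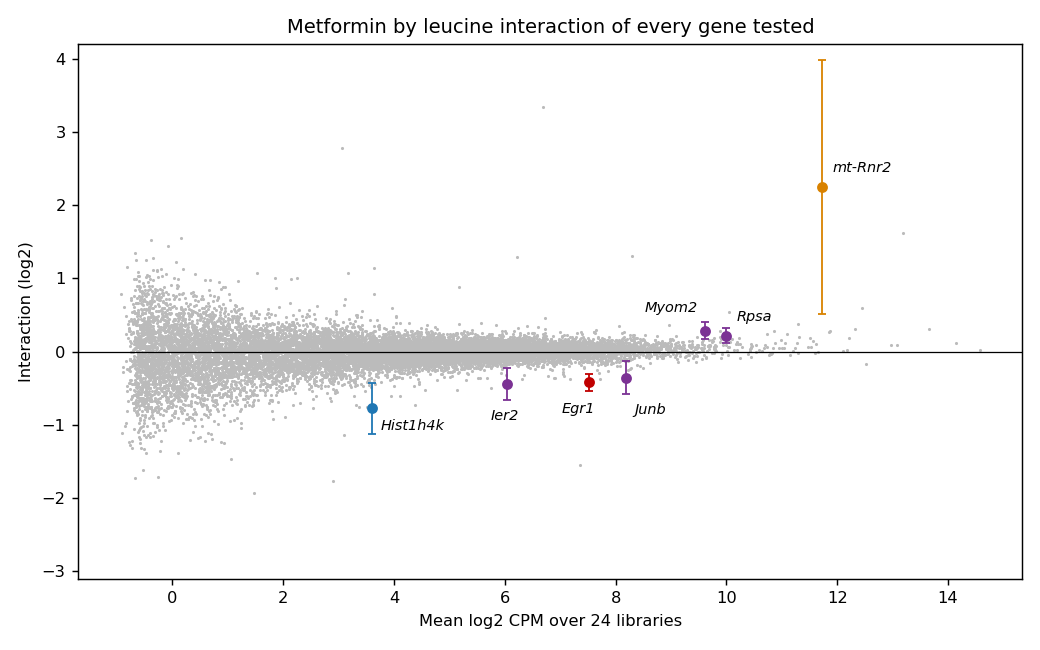
Interaction (log2) of each tested gene against its mean log2 CPM over the 24 libraries, with 7 named genes marked and their 95% intervals. Egr1 lies at -0.42 log2 (-0.54 to -0.30), and the spread around 0 widens toward low CPM.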

How the data were processed

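The deposited table held raw counts per gene for 30 libraries. Per the authors' methods, the libraries were made from total RNA with a kit that depletes ribosomal RNA. Per the submitters' processing notes, the authors trimmed reads with cutadapt 1.16, aligned them to GRCm38 with STAR 2.7.6a and counted with featureCounts 1.6.3; the annotation release and strand setting are not given in the sources used here. Depth was 12813903 to 18322581 counts a library.

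From these counts, 24 serum-deprived libraries were fitted with edgeR 4.0.16 in R 4.3.3 (filterByExpr at a minimum count of 10 and total of 15, TMM, robust quasi-likelihood, no covariate), two-sided, with adjustment over all genes. SE is the estimate over the square root of F, and 95% intervals use the t quantile. List scores use a prior count of 2. DESeq2 1.42.0 and limma 3.58.1 voom were alternatives. The code was tested on simulated data. Gene lists, members and tests were chosen with earlier results of these data known. Named genes were those called with or without MET+LEU replicate 6, up to 2 members a list by unadjusted p where none was called, 14 set genes, and the 5 largest called average effects of each agent at a mean log2 CPM of at least 1. Replicates were compared for identity, and none was a duplicate. Promoter windows came from RefSeq tables.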

Additional observations from a re-analysis of the deposited data

Results flagged for a closer look

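In a group of 6 libraries, 1 that lies far from the rest by Dixon's criterion (a gap over the range above 0.625) is reported here. Chance gives about 1 in 20 such groups, and 14 of 108 were found, 10 of them for MET+LEU replicate 6. That library stood apart in nuclear ribosomal RNA (5.85% of counts), mitochondrial ribosomal RNA (7.64%), mitochondrial mRNA (5.17%) and protein-coding counts (80.4%). It also stood apart in Ier2 (40.7 CPM), Junb (184 CPM), Slc7a5 (98.9 CPM), Myh1 (3096 CPM), mt-Rnr1 (52118 CPM) and mt-Rnr2 (41983 CPM). The others were Ier2 in MET replicate 2 (64.3 CPM), Rpsa in SD replicate 6 (971 CPM), Scd1 in LEU replicate 1 (565 CPM) and nuclear ribosomal RNA in LEU replicate 3 (1.06%).

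The effect of metformin differed with leucine absent or present by the interaction test for Egr1 (-0.42 log2) and, without MET+LEU replicate 6, for Myom2 (0.25), Ier2 (-0.36), Junb (-0.26) and Rpsa (0.23). Without that library the called set thus held 3 immediate early genes.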

How the results depend on the processing

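Egr1 was called in all 39 alternatives to the reported fit, at -0.47 to -0.37 log2 (adjusted p 6.31e-09 to 0.0351), while Myom2 was called in 11 of 40 settings, Rpsa in 5 and Ier2 and Junb in 3 each. Some genes not called in the results above passed as often as Ier2 and Junb or more. Rps6 and Rprl3 were called in 4 settings each and Pdha1, Scd1 and mt-Tp in 3 each, while Hist1h4k and H19 were called in 2 each. F830016B08Rik, a protein-coding gene singled out after its values were seen, was called in 10 of 40 (interaction 1.00 log2, adjusted p = 0.0763 as reported). The interaction count was 20 with the DESeq2 Wald test, 10 with limma-voom weights, 8 with all 30 libraries and 10 with those but without MET+LEU replicate 6. It was 3 with genes of more than 5 counts in total, 2 without MET replicates 1 to 3, 3 with replicates 1 to 3 and 4 to 6 as a term, and 1 to 5 when 1 library was left out, the 5 being without MET replicate 2 or MET+LEU replicate 6 and 4 without SD replicate 1. With a replicate block it was 3. Over 36 pairs of libraries that share a number across groups, deviations from the group means correlated at 0.0212 on average (-0.102 to 0.151). Over 180 pairs with different numbers the average was -0.00424. A small mean correlation cannot exclude structure shared by sets of numbers, such as the difference in the glycolysis list between replicates 1 to 3 and 4 to 6.

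The metformin average count of 841 became 1268 with DESeq2, 201 with the ribosomal RNA share as covariate, 155 without MET replicates 1 to 3, 440 without MET replicates 4 to 6, 139 at an adjusted p under 0.01, and 433 to 1120 with 1 library left out (433 without SD replicate 2, 469 without LEU replicate 3, 522 without MET replicate 3, 545 without SD replicate 1). Upper-quartile scaling split it into 418 higher and 388 lower. The leucine average count of 1165 became 244 with the covariate, 550 without MET replicates 1 to 3, 448 at an adjusted p under 0.01, and 905 to 1296 with 1 library left out. With a replicate block the metformin count was 1088 and the leucine count 1411. With replicates 1 to 3 and 4 to 6 as a term they were 1141 and 1485.

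Of 66 named interactions, those that changed sign were near 0 or of ribosomal RNA. The interaction of mt-Rnr1 was -0.65 with voom, -0.051 with the replicate block, -0.76 with the covariate, -0.91 from 30 libraries without MET+LEU replicate 6, and -0.91 to 0.79 with 1 library left out. Leucine's average effect became -0.055 on mt-Rnr1 and -0.054 on mt-Rnr2 with the covariate. Rps12 gave -0.0051 with voom, -0.020 with the covariate, -0.0024 without MET replicates 1 to 3, -0.023 from 30 libraries without MET+LEU replicate 6, and -0.020 to 0.073 with 1 library left out. Sesn2 gave 0.0011 from 30 libraries without MET+LEU replicate 6, 0.055 without MET replicates 4 to 6, and -0.11 to 0.0042 with 1 left out. Prkaa2 gave -0.0052 with upper-quartile scaling, -0.0043 without MET replicates 4 to 6 and -0.028 to 0.049 with 1 left out, and Slc7a5 gave -0.013 to 0.052 with 1 left out. The cause was not tested. List medians were run in 6 alternatives, in which the histone and sarcomere medians kept their sign (-0.392 to -0.178 and 0.110 to 0.148). Fits within sets of replicates went outside these ranges. The histone median was -0.03 log2 within 1 to 3, and the sarcomere median 0.041 within 4 to 6 without MET+LEU replicate 6. Without MET replicates 4 to 6 the cell cycle median was 0.0277, the AMPK median 0.000415 and the p53 median 0.0177. Depth limits genes under a mean log2 CPM of 1, where the median SE was 0.406 log2.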

Other observations

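Mitochondrial ribosomal RNA took 0.281 to 0.367% of counts in SD, 0.501 to 0.71% in LEU and 0.649 to 0.76% in MET+LEU replicates 1 to 5. In MET it was 0.244 to 0.47% in replicates 1 to 3 and 0.624 to 0.705% in replicates 4 to 6. Among proteasome subunits, which degrade ubiquitin-tagged proteins, none was called by edgeR and the median interaction was 0.0343 log2. At an unadjusted p under 0.05, 4 of 39 lay above 0 and none below, against 4.14% and 3.46% of all genes. Of 17 myogenic regulators and fusion genes, 15 lay below 0 with a median of -0.0493 log2, and Mymk, the membrane activator of myoblast fusion, gave -0.12 log2 (adjusted p = 0.741).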
